A study of Mus musculus with 4 samples.

Results

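The expressed Zfp genes of mouse quadriceps were taken as the genes whose symbol is Zfp followed by a number only, and whose level averaged at least 2 CPM (counts scaled to the same library total) over 4 RNA-seq libraries. Of 51826 genes in the table, 374 had such a symbol, 245 of these passed the level and 129 lay below it. The members were thus chosen by their mean level over all 4 libraries, whatever the genotype, and their levels are a description. Just inside the limit lay Zfp595, Zfp784 and Zfp961 at 2.06, 2.09 and 2.13 CPM, and just outside it Zfp709, Zfp414 and Zfp934 at 1.97, 1.95 and 1.90 CPM. All 245 passed the filter on low counts and were tested.

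The libraries came from 2 wild-type (WT) mice and 2 Mef2dα2 exon knockout (Eko) mice, 1 library per mouse, all sedentary males of 20 weeks on the C57BL6/J background. The Eko mice carry a germline deletion, made with CRISPR-Cas9 and present in every tissue, of the α2 exon on both alleles of Mef2d, a MADS-box transcription factor. This exon is used by the muscle isoform, and the WT mice carry no edit. Which of the study's founder lines gave these mice is not given in the sources used here.

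Zfp is the mouse name for zinc finger protein, and most such genes encode tandem C2H2 fingers, short loops held by a zinc ion that each read a few bases of DNA. Many also carry a KRAB box, which recruits the corepressor Trim28, the histone methyltransferase Setdb1 and HP1 proteins. KRAB zinc finger proteins are known for silencing retrotransposons and for keeping genomic imprints, and their genes lie in tandem clusters that arose by duplication. Others with the same name bind RNA, serve the ribosome or build chromatin complexes.

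Total counts were between 72626757 and 85176059 per library, and 3 counts, taken as the smallest level a library can show, stood for 0.0352 to 0.0413 CPM (counting error only). The Zfp genes took 0.518% and 0.530% of a library's counts in WT and 0.551% and 0.557% in Eko mice. Without Zfp106, the member with the most counts, the shares were 0.361% and 0.365% against 0.374% and 0.367%, so most of the difference in share rested on that gene. WT replicate 1 stood apart from the other libraries, with a chi-square per degree of freedom of 119 to 215 in its pairs against 35.5 to 42.0 among the others. Mef2d itself had 19687 and 18393 counts in WT and 21695 and 17206 in Eko mice, since counts per gene do not separate the α2 exon. Markers of skeletal muscle fibres summed to between 141137 and 148471 CPM in every library. Of these 8 genes, 3 (37.5%) were higher and 2 (25%) lower in both Eko mice, beside 20.8% and 23.0% of all genes tested. The 2 lower were Myh1 and Acta1, at log2 fold changes of −0.44 and −0.14. Adipocyte markers summed to 167 and 99.5 CPM in WT and 94.6 and 71.3 in Eko mice, macrophage markers to 45.7 and 35.5 against 30.9 and 24.6, and Schwann cell markers to 23.6 and 26.6 against 29.2 and 35.7. Of the 6 adipocyte markers, only Cfd (16.7%) was lower in both Eko mice. The others overlapped between genotypes, among them Lep at a log2 fold change of 0.21. Of 6 macrophage markers 4 (66.7%) were lower in both Eko mice, beside 23.0% of all genes tested. Of 5 Schwann cell markers 3 (60%) were higher in both, beside 20.8%. The sums overlapped between genotypes for endothelial markers (123 to 142 CPM), fibro-adipogenic markers (276 to 355), satellite cell markers (6.29 to 8.03) and red blood cell markers (72.4 to 75.2). Gene by gene, 3 of 5 fibro-adipogenic markers (Col3a1, Pdgfra and Lum) were lower in both Eko mice (60%, beside 23.0% of all genes tested). Col1a1 and Dcn overlapped between genotypes, Dcn at a log2 fold change of 0.14, and the list median was −0.17. Of 4 satellite cell markers 2 (Myf5 and Calcr) were higher in both Eko mice (50%, beside 20.8% of all genes). Pax7 and Vcam1 overlapped, and the list median was 0.36. No marker gene of any list passed the test, none was at 0 in all libraries, and the part of these cells in the results below was not tested. In whole muscle, fewer cells of a type and less RNA per cell cannot be told apart.

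One Zfp gene, Zfp503, changed between the genotypes at this depth. Zfp503, a transcriptional repressor of the nervous system and limb in development, had 526 and 880 counts in WT against 1938 and 1729 in Eko mice. Both Eko mice lay above both WT mice. After TMM scaling its level was 8.91 ± 2.79 CPM in WT and 23.3 ± 1.2 CPM in Eko mice (SD, n = 2 mice each), and the log2 fold change was 1.39 with a standard error of 0.19 (edgeR quasi-likelihood, Benjamini-Hochberg adjusted p = 0.0481). The test stood near its limit. With only genes above 1 CPM in 2 libraries tested, the adjusted p of Zfp503 was 0.0670 at a log2 fold change of 1.38, and in the other alternatives the adjusted p lay between 2.2e-35 and 0.0483.

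Zfp503 is a gene of the minus strand of chromosome 14 (bases 21983959 to 21989601 in GRCm38), and no annotated exon of another gene overlaps its exons. It belongs to a pair of related proteins with Zfp703, a regulator of epithelial and mammary growth, and neither coding sequence held a match to the standard C2H2 pattern. Zfp703 had 1418 and 1776 counts in WT and 1853 and 1378 in Eko mice, so its genotypes overlapped, with a log2 fold change of 0.00 (standard error 0.10). The transcripts of Zfp503 are rich in G and C at 58.9%. Its log2 fold change was 1.5 after the GC correction described below (adjusted p = 0.0292). Among all 16120 genes tested, 67 (0.416%) passed the threshold in either direction, 0.105% higher and 0.31% lower in Eko mice, so 1 of 245 Zfp genes is a share close to the background.

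**Figure D1:**
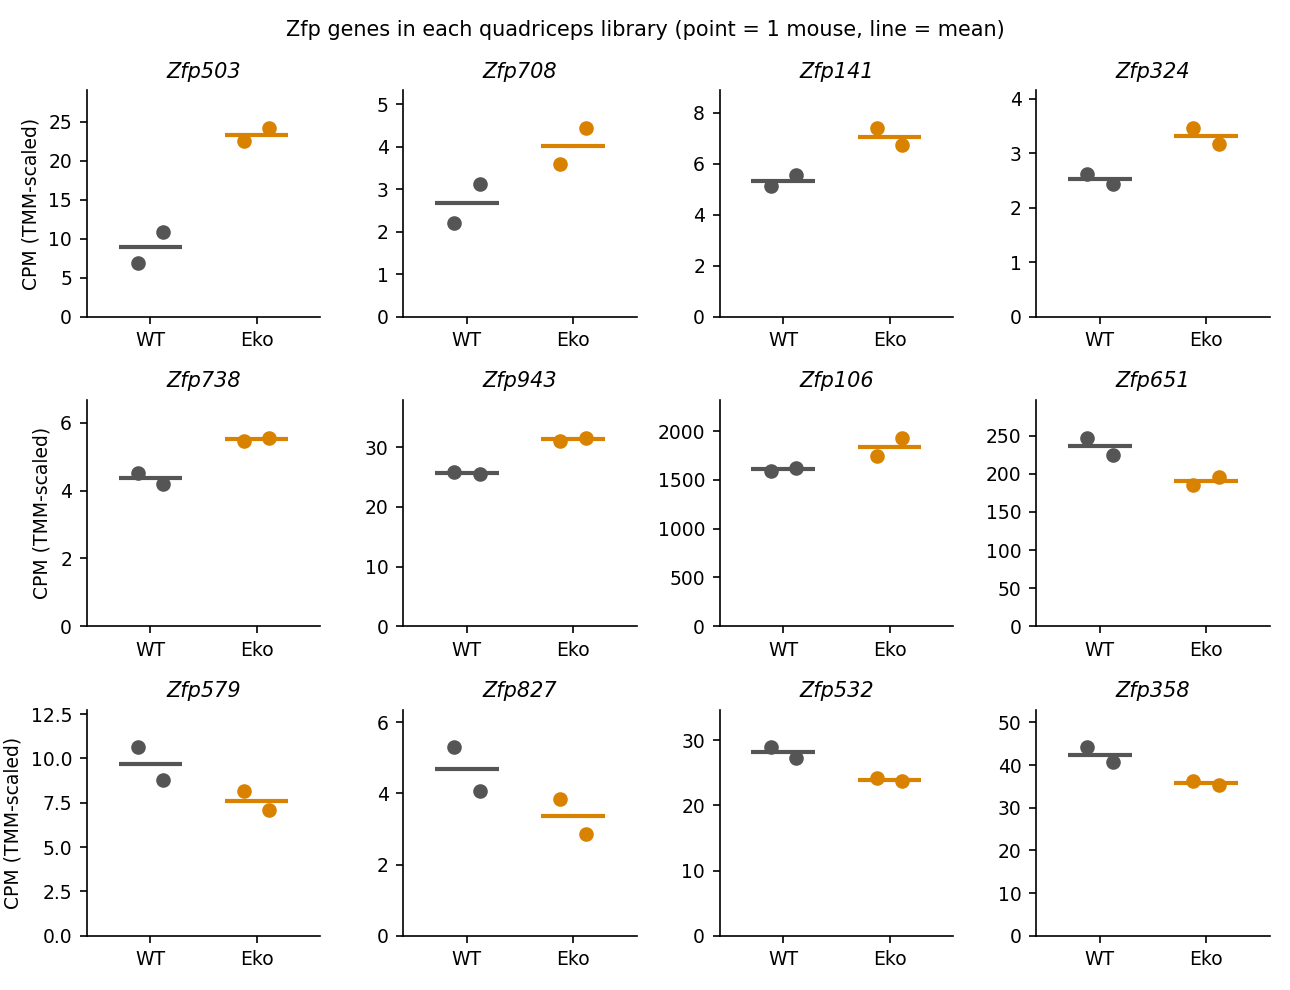
Level in TMM-scaled CPM (vertical axes from 0, each panel with its own scale) of 12 Zfp genes in each mouse, with WT in grey and Eko in orange. Points are mice and lines are the means of 2 mice. Only Zfp503 passed the test, and in all 12 panels the genotypes do not overlap.

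Without adjustment, 28 Zfp genes had a p below 0.05, beside 11.6% of all genes tested, of which 21 were higher and 7 lower in Eko mice (5.15% and 6.41% of all genes). The count in both directions together was near the background, and its split leaned to higher levels in Eko mice. The same lean stood in the levels by mouse. Both Eko mice lay above both WT mice for 80 Zfp genes (32.7%, beside 20.8% among all genes tested) and below both WT mice for 31 Zfp genes (12.7%) against 23.0% of all genes. The log2 fold change was above 0 for 166 of 245, and for 48.7% of all genes. The differences were small. The median log2 fold change of the Zfp genes was 0.069, with quartiles of −0.028 and 0.159, against −0.0051 for all genes tested and 0.0002 for the 10569 genes at 2 CPM or more that are not Zfp members.

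The lean did not rest on 1 mouse. The median log2 difference of the Zfp genes was 0.064 for Eko replicate 1 and 0.052 for Eko replicate 2 against WT replicate 1, and 0.084 and 0.076 against WT replicate 2. The same medians for genes that are not members lay between −0.018 and −0.0006. Within a genotype, the medians of the Zfp genes differed by −0.024 from WT replicate 1 to WT replicate 2 and by 0.0060 from Eko replicate 1 to Eko replicate 2. Each of the 4 comparisons between genotypes was thus larger than both comparisons within one. Left without WT replicate 1, the library that stood apart, the median was 0.074. Genes of a list share their libraries and are no replicates, so no test was made over the list.

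Zfp genes without a call are given below with their values only. The genes furthest above WT after Zfp503 were mostly KRAB genes with few counts. Zfp708, which binds retrotransposon sequence, had 167 and 253 counts in WT and 309 and 317 in Eko mice (0.59 ± 0.21 as log2 fold change and standard error, adjusted p = 0.363). Zfp141 had 388 and 451 counts against 638 and 482 (log2 fold change 0.40, standard error 0.12, adjusted p = 0.279). In both genes the Eko mice lay above the WT mice, by less than the test could call. Exons of Zfp708 overlap those of Rslcan18 on the same strand, so their reads depend on how RSEM divided them. The next genes by log2 fold change among those whose genotypes did not overlap were Zfp324 at 0.39, Zfp783 at 0.38, Zfp433 and Zfp738 at 0.34, Zfp65 at 0.33, Zfp28 at 0.32 and Zfp748 at 0.31, with adjusted p between 0.354 and 0.501. The sizes depended on single mice, and without 1 mouse at a time the log2 fold change ranged from 0.356 to 0.877 for Zfp708, from 0.163 to 0.579 for Zfp783 and from 0.210 to 0.496 for Zfp433. Of these 7, all but Zfp783 hold a KRAB box. Zfp783 is annotated as a pseudogene with no coding sequence and shares exons with Zfp956.

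With one exception, the genes furthest below WT came closer to it after the GC correction. Zfp827, which brings the NuRD complex to telomeres, had 402 and 328 counts in WT and 332 and 205 in Eko mice (−0.47 ± 0.20 as log2 fold change and standard error, adjusted p = 0.431). Zfp579 had 807 and 711 counts against 703 and 507 (log2 fold change −0.35, adjusted p = 0.387). The levels of Eko mice were below those of WT mice in both, once scaled to library size. Zfp651 was the best measured of the 10, with 18783 and 18206 counts in WT and 15951 and 13997 in Eko mice. Its level was 248 and 225 CPM in WT and 185 and 196 CPM in Eko mice (−0.31 ± 0.08 as log2 fold change and standard error, adjusted p = 0.216). DESeq2 called Zfp651 lower in Eko mice (adjusted p = 0.0469), beside Zfp503, where it called 1.78% of all genes (0.697% higher and 1.08% lower). Without a filter on low counts edgeR called Zfp651 (adjusted p = 0.00719), Zfp503 and Zfp708 (adjusted p = 0.0319), where it called 3.25% of all genes (1.23% higher and 2.01% lower). Over all alternatives the adjusted p of Zfp651 reached 0.609 and that of Zfp708 0.715. The others of the 10 were Zfp948 at −0.34, Zfp362 at −0.28, Zfp358 and Zfp954 at −0.24, Zfp691 and Zfp532 at −0.23 and Zfp628 at −0.21. Zfp948 and Zfp954 hold a KRAB box and the other 8 do not. With the GC correction the log2 fold change was −0.19 for Zfp651, −0.22 for Zfp579, −0.13 for Zfp358 and −0.08 for Zfp628, while Zfp948, the exception, went from −0.34 to −0.40. Without 1 mouse at a time Zfp827 ranged from −0.691 to −0.268 and Zfp948 from −0.563 to −0.142. Zfp579 ranged from −0.464 to −0.204, Zfp362 from −0.379 to −0.159, Zfp954 from −0.350 to −0.117 and Zfp628 from −0.309 to −0.110.

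Of the 10 genes with the highest CPM, none passed edgeR's test with its filter on low counts, and Zfp651 passed the 2 alternatives given above. Zfp106, an RNA-binding protein needed by motor neurons and muscle, alone took 30.4% and 31.1% of the counts of all 245 genes in WT mice and 32.2% and 34.2% in Eko mice. Its counts were 120792 and 131233 in WT and 150865 and 138239 in Eko mice. Both Eko mice lay above both WT mice, with 0.20 as the log2 fold change (standard error 0.08, adjusted p = 0.422), and an exon of Gm26899 overlaps it on the other strand. Per kilobase of exon its level was 165 CPM, above Zfp91 at 41.2, Zfp651 at 30.2 and Zfp652 at 20.5 CPM per kilobase. Zfp91, a ubiquitin ligase, had 30785 and 34011 counts in WT and 35236 and 29947 in Eko mice, with overlapping genotypes and a log2 fold change of 0.0021 (standard error 0.07) whose sign turned with the scaling. Zfp652, a transcriptional repressor, had a log2 fold change of 0.05 (standard error 0.07). The remaining 6 of the 10, Zfp24, Zfp260, Zfp768, Zfp445, Zfp207 and Zfp706, lay between −0.13 and 0.14 with adjusted p between 0.596 and 0.959.

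The genes whose proteins act on RNA and the ribosome were 9, none called, with a median log2 fold change of 0.043. Zfp638, a nuclear RNA-binding protein that also serves gene silencing, had 2578 and 2928 counts in WT and 3298 and 2894 in Eko mice, and its scaled levels did not overlap between genotypes (34.0 and 36.2 against 38.3 and 40.5 CPM, log2 fold change 0.17, adjusted p = 0.455). Zfp830, a splicing factor, likewise did not overlap, at a log2 fold change of 0.14. Zfp598, the ubiquitin ligase that marks collided ribosomes, was at −0.10 and Zfp622, a factor of the large ribosomal subunit, at 0.04. Zfp36, whose CCCH fingers bind AU-rich messages and speed their decay, had the largest standard error of the 9. Its counts were 1061 and 770 in WT and 1148 and 525 in Eko mice, a log2 fold change of −0.18 with a standard error of 0.29. Zfp326 at 0.04, Zfp346 at 0.06 and Zfp207 at 0.02 had overlapping genotypes.

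Of 7 genes known for silencing retroelements or guarding imprints, 5 were members (median 0.063), and none passed edgeR's test with its filter on low counts, while Zfp708 passed it without the filter, as given above. Zfp57, the imprint factor, had 23 and 15 counts in WT and 32 and 29 in Eko mice, below the level limit, and Zfp819 had no count. Zfp445, which acts on imprints beside Zfp57, had 3370 and 3484 counts in WT and 4493 and 3157 in Eko mice. After scaling, its Eko mice were at 52.1 and 44.1 CPM and its WT mice at 44.4 and 43.1 CPM, so the genotypes overlapped. Zfp568, which restrains a placental Igf2 transcript, was at a log2 fold change of 0.06 and Zfp809, which silences murine leukaemia provirus, at 0.01, both with overlapping genotypes. Zfp932, which acts on endogenous retroviruses, was lower in both Eko mice at −0.16 (adjusted p = 0.642), on the other side of 0 from Zfp708.

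None of 13 genes of chromatin complexes was called. Of these, 3 (23.1%) lay above and 3 below WT in both Eko mice, beside 20.8% and 23.0% of all genes, and 9 had a log2 fold change above 0 (median 0.022, and 0.074 after GC correction). Zfp644, a partner of the G9a methyltransferase, was at a log2 fold change of 0.14, Zfp451, a SUMO ligase, at 0.19, and Zfp410, known as the activator of Chd4, at 0.01 (−0.03 with a length correction), each with Eko mice above WT mice. Zfp827 and Zfp532 were given above, and Zfp335, a cofactor of H3K4 methylation, was the third below, at −0.21. Zfp532, Zfp592 and Zfp687 encode partners in a complex with Zmynd8, and their log2 fold changes of −0.23, 0.02 and 0.18 did not go one way. Zfp143 at −0.02, Zfp217 at 0.18, Zfp281 at 0.16, Zfp462 at 0.14 and Zfp91 had overlapping genotypes.

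Of the 4 genes that steer mesenchymal cells toward or away from fat, none was called. Zfp423, which commits cells to the fat lineage, had 835 and 704 counts in WT and 932 and 621 in Eko mice (log2 fold change −0.01). Zfp516, a factor of brown fat, was at 0.02, Zfp467 was lower in both Eko mice at −0.21, and Zfp521, which opposes Zfp423, was higher in both at 0.19. Adipocyte markers, which differed most by mouse, had a median log2 fold change of −1.14. Their sum was highest in WT replicate 1, while Lep was highest in Eko replicate 1. Of the 6 genes listed for development and other roles, 5 were members. Beside Zfp503 and Zfp703 these were Zfp148 at 0.07, Zfp384 at −0.01 and Zfp746, a repressor of Ppargc1a, at −0.02, all with overlapping genotypes. Zfp750 lay below the level limit.

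The members were also described by what their proteins hold. With every coding transcript of a gene searched, 119 had a KRAB box and 125 had none. In the longest coding sequence of each gene, the number of C2H2 matches had a median of 11 and reached 37. The 119 KRAB genes had a median log2 fold change of 0.119. Of these, 52 (43.7%) lay above and 11 (9.24%) below WT in both Eko mice, beside 20.8% and 23.0% of all genes tested. Of these 119, 13 had an unadjusted p below 0.05, all higher in Eko mice, beside 11.6% of all genes tested (5.15% higher and 6.41% lower). None of them passed the adjusted threshold with the filter on low counts (without the filter Zfp708 did). The 125 genes without the box had a median of 0.019, with 27 (21.6%) above and 20 (16%) below. The median was thus higher among KRAB genes, which are also poorer in G and C (median 42.8% against 51.1%). The GC correction below narrowed this gap over the groups as a whole. Among genes below the GC median of all genes tested it stayed, with medians of 0.124 against 0.042 before the correction and 0.089 against 0.019 after it. By number of C2H2 matches, the median was 0.031 for 0 to 4, 0.032 for 5 to 9, 0.098 for 10 to 14 and 0.101 for 15 or more. GC content fell with the number of matches (rank correlation −0.26). After the GC correction these medians were 0.064, 0.045, 0.087 and 0.089. The 144 KRAB genes outside the 245, which lie below the level limit or are named otherwise, had a median of 0.057, with 25% above and 11.8% below WT in both Eko mice. After the GC correction their median was 0.028, against 0.022 for all genes tested. The 87 tested Zfp genes below the level limit had a median of 0.057, and of 0.031 after the correction. Of these 87, 17.2% lay above and 11.5% below WT in both Eko mice.

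KRAB genes sit in clusters, and the medians differed by chromosome. Chromosome 7 held 61 of the 245 genes (median log2 fold change 0.069), chromosome 17 held 27 (0.160) and chromosome 13 held 18 (0.136). On chromosome 13, 9 of 18 (50%) lay above WT in both Eko mice and none below. On chromosome 17, 14 of 27 (51.9%) lay above and 4 (14.8%) below. Among all genes tested the shares were 20.8% and 23.0%. Chromosome 8, with 18 genes, had a median of 0.014 and chromosome 4, with 10, of −0.029. The genes of chromosomes 13 and 17 are poor in G and C, with median contents of 40.6% and 40.7%, against 46.0% for all 245 and 49.9% for all genes tested. After the GC correction described below their medians were 0.096 and 0.131, against 0.077 for all 245. The corrected medians of chromosomes 7, 8 and 4 were 0.074, 0.078 and −0.038, so that chromosome 8 no longer lay below all 245.

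**Figure D2:**
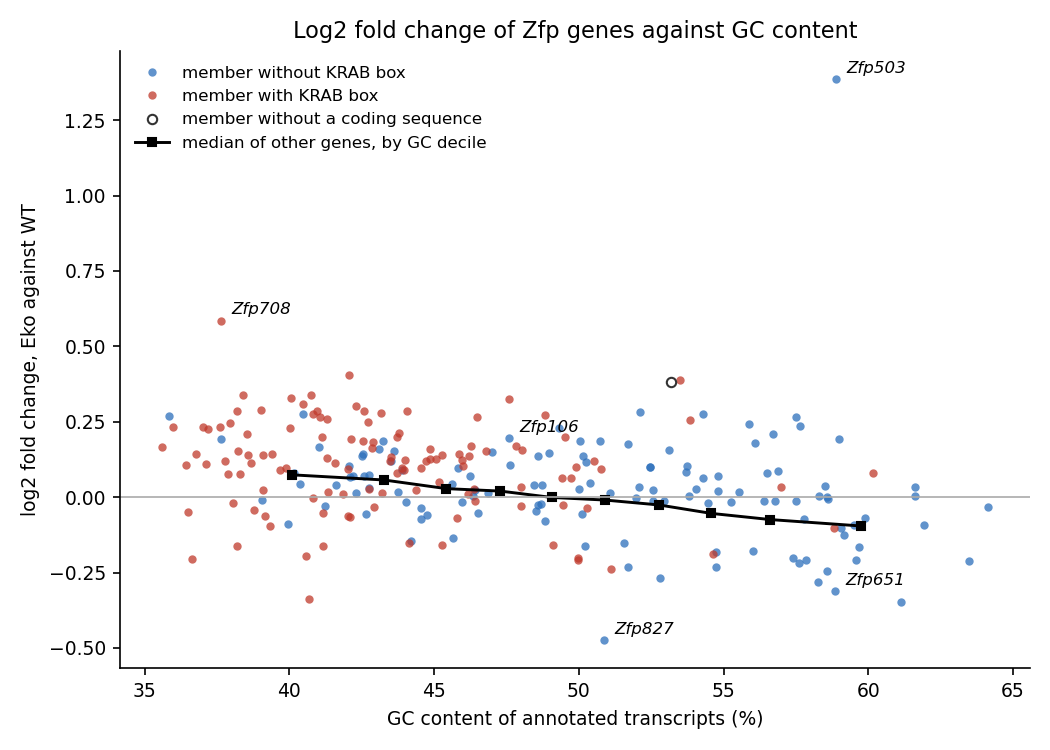
Log2 fold change of Eko against WT mice for each Zfp gene (vertical axis) against the GC content of its annotated transcripts in percent (horizontal axis), with KRAB genes in red, genes without the box in blue and the gene without a coding sequence as an open circle. The black line joins the medians of the other genes tested in each GC decile. The line falls from 0.074 in the lowest decile to −0.096 in the highest, most KRAB genes sit to the left above it, and Zfp503 stands alone at the top.

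GC content and genotype moved together in these libraries, among Zfp genes and all others. Over the 245 genes the rank correlation of log2 fold change with GC content was −0.33 (Pearson's r −0.26), and over the 15604 tested genes with a GC value it was −0.22 (r −0.15). The points share 4 libraries and are described without a test. Without Zfp503, whose GC content and log2 fold change are both high, the rank correlation over Zfp genes was −0.35. The range of GC content among them is wide, from 35.6% to 64.1%, and 129 of the 245 (52.7%) fell in the lowest 3 deciles of all genes tested.

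To show what such differences in base composition look like, the first C2H2 finger that lies within 1 exon is printed for 6 genes, with G and C in capitals. Each stretch has 84 bases from the codon of the first cysteine into the linker, on the coding strand of GRCm38. Counted by matches to a strict C2H2 pattern, it is finger 2 of Zfp651 and finger 1 of the others. The first 3 are KRAB genes above WT in both Eko mice, and the last 3 are genes without the box below WT in both. The 6 were picked by box and direction, so the contrast between them is set by the choice, and others do not follow it, such as Zfp948 (KRAB box, GC content 40.7%, below WT) and Zfp324 (KRAB box, 53.5%, above WT). Zfp943 (1962 and 2065 counts in WT, 2675 and 2260 in Eko mice, log2 fold change 0.29, adjusted p = 0.210) was chosen after its values were seen.
Zfp738: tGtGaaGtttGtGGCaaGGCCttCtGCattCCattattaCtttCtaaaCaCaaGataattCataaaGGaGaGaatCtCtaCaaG
Zfp65: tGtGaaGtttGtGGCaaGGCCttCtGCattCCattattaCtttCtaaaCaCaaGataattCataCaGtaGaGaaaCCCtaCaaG
Zfp943: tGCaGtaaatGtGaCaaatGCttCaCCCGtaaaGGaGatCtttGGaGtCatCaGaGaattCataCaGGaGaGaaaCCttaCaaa
Zfp651: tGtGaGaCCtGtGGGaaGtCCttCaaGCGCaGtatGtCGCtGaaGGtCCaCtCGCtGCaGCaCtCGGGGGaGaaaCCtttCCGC
Zfp579: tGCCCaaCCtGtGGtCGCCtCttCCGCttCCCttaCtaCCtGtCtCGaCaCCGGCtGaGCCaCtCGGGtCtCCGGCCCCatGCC
Zfp358: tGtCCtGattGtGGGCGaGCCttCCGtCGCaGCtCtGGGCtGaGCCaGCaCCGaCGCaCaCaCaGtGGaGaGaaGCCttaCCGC

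These stretches lie at chr13:67671343-67671426 (Zfp738, minus strand), chr13:67708661-67708744 (Zfp65, minus), chr17:21992478-21992561 (Zfp943, plus), chr9:121766493-121766576 (Zfp651, plus), chr7:4994686-4994769 (Zfp579, minus) and chr8:3495885-3495968 (Zfp358, plus), each within a coding exon. G and C made up 35.7%, 36.9% and 39.3% of the first 3 and 58.3%, 65.5% and 63.1% of the last 3. Zfp738 and Zfp65 are neighbours on chromosome 13, and their stretches were identical at 80 of 84 bases. Their counts could therefore be divided by RSEM from shared reads. Zfp738 had 343 and 340 counts in WT and 471 and 398 in Eko mice, and Zfp65 had 418 and 418 against 550 and 504. Exons overlapped those of a gene on the other strand for 62 Zfp genes, and those of another gene on the same strand for 22.

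The trend with GC content was present in every library and split by genotype. As the deviation of a library from the mean of the 4, its rank correlation with GC content over the Zfp genes was 0.19 and 0.23 in WT and −0.20 and −0.22 in the Eko mice. Over all genes it was 0.16 and 0.13 in WT and −0.14 and −0.16 in Eko mice. With 2 mice per genotype, a difference of library and a difference of genotype in this trend cannot be told apart. Within the KRAB genes the values were −0.04 and 0.28 in WT and −0.33 and 0.13 in Eko mice, so that WT replicate 2 and Eko replicate 1 carried the trend there. Among genes without the box they were 0.38 and −0.02 in WT and 0.04 and −0.43 in Eko mice, carried by the other 2 libraries.

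**Figure D3:**
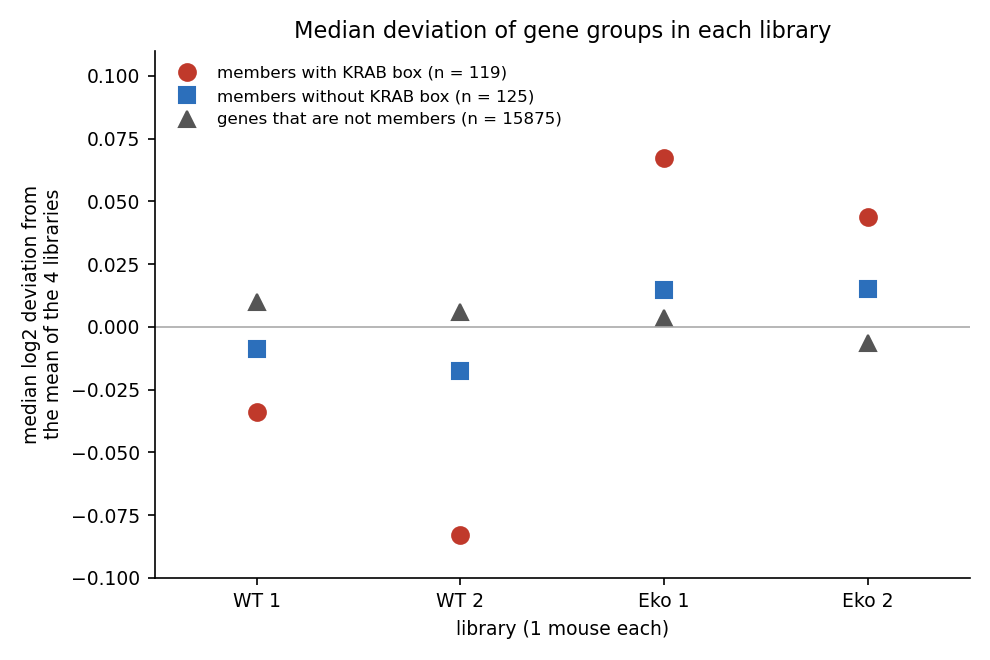
Median log2 deviation of each library from the mean of the 4 libraries (vertical axis), for the 119 KRAB genes, the 125 genes without the box and the 15875 other genes tested, by library (horizontal axis, 1 mouse each). The KRAB genes lie at −0.034 and −0.083 in WT and at 0.067 and 0.044 in Eko mice, while the other genes tested stay between −0.0064 and 0.0099.

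Each library's trend with GC content was then removed with a spline over all genes, and the log2 fold changes were fitted again. The rank correlation over Zfp genes became 0.016. The median log2 fold change of the Zfp genes was 0.077 after the correction, against 0.022 for all genes tested, and both Eko mice lay above both WT mice for 82 of them (33.5%, against 22.7% of all genes) and below for 27 (11%, against 17.6%). Since the correction also moved the median of all genes, the Zfp median lay 0.055 above that of all genes with it and 0.074 above without it. For KRAB genes the median went from 0.119 to 0.089, and for genes without the box from 0.019 to 0.056. Most of the gap between the 2 groups as a whole was thus gone. For the 72 genes without the box whose GC content was above the median of all genes it went from 0.0028 to 0.083. For the 53 without the box below that GC median it went from 0.042 to 0.019. The corrected value was below the 0.022 of all genes tested and near the 0.018 of genes below the GC median that are not members. The lean was thus absent from this group after the correction. For the 107 KRAB genes below the GC median it went from 0.124 to 0.089, and for the 12 above it from −0.0025 to 0.074. The 4 comparisons between single mice stayed above 0 for the Zfp genes, at 0.058, 0.024, 0.107 and 0.103. In genes that are not members they ranged from −0.021 to 0.061, and in each of the 4 the Zfp median was the higher.

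**Figure D4:**
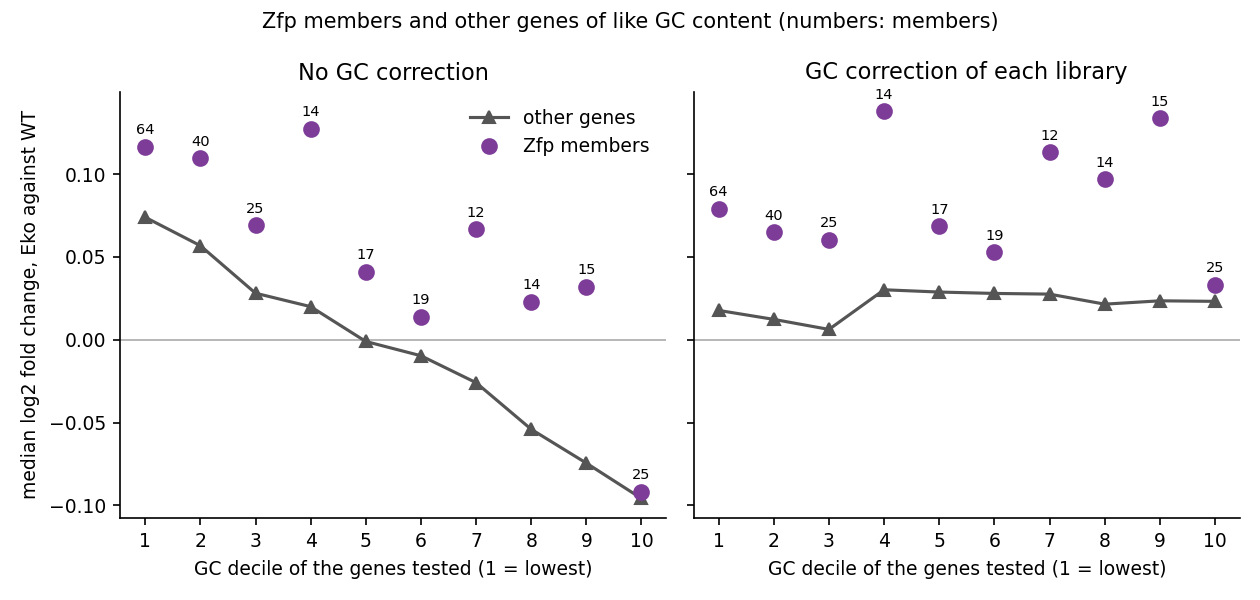
Median log2 fold change of Zfp genes (purple points, number of genes above each) and of other genes (grey line) in each decile of GC content of the genes tested (horizontal axis, 1 the lowest), before the GC correction at left and after it at right. The purple points lie above the grey line in all 10 deciles on both sides, and come closest to it in decile 10.

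Compared with other genes of like GC content, the Zfp genes had the higher median in 10 of 10 deciles, before and after the correction. Of these deciles 4 held 20 or more Zfp genes. In the lowest decile the median was 0.116 over 64 Zfp genes against 0.074 over 1497 others, and after correction 0.079 against 0.018. In the highest it was −0.092 over 25 Zfp genes against −0.096 over 1536 others, and 0.033 against 0.023 after correction. The difference was thus smallest where GC content was highest.

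Other genes with the same kind of finger were looked at by name. Of 35 Zbtb genes tested, 13 (37.1%) lay above and 3 (8.57%) below WT in both Eko mice, beside 20.8% and 23.0% of all genes tested. Their median log2 fold change was 0.068, and 0.109 after GC correction, at a median GC content of 49.6%. The median was 0.025 for 9 Zscan genes (0.090 after GC correction), 0.038 for 9 Zkscan genes (0.075) and 0.099 for 29 genes named Zfp with a number and letters (0.066), so the correction turned the order of these 3 groups. None of these 82 genes was called.

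The partners of KRAB proteins were looked at in the same way, and none of the 20 tested was called. Their levels summed to 596 and 599 CPM in WT and 621 and 642 CPM in Eko mice (median log2 fold change 0.067). Of the 20, 9 (45%) lay above and 2 (10%) below WT in both Eko mice, beside 20.8% and 23.0% of all genes tested. Trim28, the scaffold that the KRAB box binds, had 2035 and 2229 counts in WT and 2246 and 1999 in Eko mice (log2 fold change −0.01, standard error 0.07). Setdb1 was at −0.08 with overlapping genotypes, and Cbx5 and Cbx3, which encode HP1 proteins, were at 0.17 and 0.13 with both Eko mice above both WT mice. Atrx, a remodeller of repeat chromatin, had the highest log2 fold change of the 20, at 0.26 (3965 and 4690 counts against 5634 and 4739, adjusted p = 0.289), and Mta1 and Rbbp4 of the NuRD complex were below WT in both at −0.20 and −0.13.

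Since the deletion affects a MEF2 factor, promoters were searched for the MEF2 motif on both strands. RefSeq promoter windows of GRCm38.p6, 250 bases before to 50 after a start, were at hand for 203 of the 245 genes. The motif stood in 4 of them (1.97%), against 3.7% of 27025 genes with a window, expressed or not, and the Zfp503 window held none. The Zfp windows had a median GC content of 55.7%, against 52.75% for all genes with a window. Sites outside these windows were not searched. The 4 genes were Zfp329, Zfp68, Zfp708 and Zfp799, whose log2 fold changes were −0.09, 0.25, 0.59 and 0.19. None passed edgeR's test with the filter on low counts, and Zfp708 passed it without the filter. The window of Zfp708 is shown because it holds the match of the gene furthest above WT after Zfp503. The stretch is chr13:67081587-67081706, minus strand, with the motif in capitals 106 bases before the start.
Zfp708: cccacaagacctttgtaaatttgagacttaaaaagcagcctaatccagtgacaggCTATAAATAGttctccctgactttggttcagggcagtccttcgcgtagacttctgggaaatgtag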

How the data were processed

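PolyA RNA of quadriceps was sequenced from 4 mice. Per the labels, the authors checked reads with FastQC, aligned them with STAR 2.6.1a to mm10 and estimated expected counts per gene with RSEM, and the deposited expected counts were not normalized. All deposited values were whole, so rounding changed none. The strand setting of the counting is not given in the sources used here. Genotypes and replicate numbers come from the sample labels, and these numbers name different mice. The study describes the WT and Eko mice as littermates. Which mice shared a litter is not given in the sources used here, so mice were not paired.

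Counts were analysed in R 4.3.3 with edgeR 4.0.16: TMM scaling, edgeR's filter on low counts (16120 genes), the quasi-likelihood test with genotype as sole term, and Benjamini-Hochberg adjustment over all genes at 0.05. An exact two-sided permutation test of 2 against 2 mice cannot give a p below 0.333. DESeq2 1.42.0, which the study used, and limma 3.58.1 served as alternatives. The members, gene lists and alternatives were chosen with earlier results of these data known, so no test was made over a list. Genes named are those called, the 10 furthest from WT in each direction among those whose genotypes do not overlap, the 10 with the highest CPM, those next to the level limit and the listed genes, and exceptions are Zfp943 and the 3 other genes with a motif match.

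GC content, length and exon overlap were taken from all annotated transcripts in GENCODE M21 (GRCm38), which held 91.8% of the table's symbols and all 245 Zfp genes. The authors counted on an Ensembl release, so the limits of a gene can differ from those used here. A C2H2 match was counted in the longest coding sequence. A KRAB box was called where, in any coding transcript, at least 18 of 37 residues were identical to a consensus of 274 seed windows. The GC correction fitted each library's log2 deviation on GC content with a spline of 5 degrees of freedom and entered as an offset. The tests were tested on simulated data.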

Additional observations from a re-analysis of the deposited data

How the results depend on the processing

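The median log2 fold change of the Zfp genes stayed above 0 in every alternative, between 0.066 and 0.081, and leaving out each mouse in turn gave 0.069 to 0.074. The median of all genes moved too, so the Zfp median lay 0.074 above it in the reported fit, 0.055 above it under each of the 3 GC corrections, 0.063 under the length correction and 0.069 to 0.082 under the other alternatives with all mice. Zfp503 was called in each alternative except the filter of at least 1 CPM in 2 libraries, under which 0 Zfp genes and 23 genes in all were called. DESeq2 called 2 Zfp genes (Zfp503 and Zfp651) of 268 genes in all (1.78% of those tested), and edgeR without a filter 3 (also Zfp708) of 799 (3.25%). The likelihood ratio test called 312 genes in all, the fit with a replicate block 186 and the GC correction with the replicate block 155, each with Zfp503 as the sole Zfp gene; the deviations of same-numbered mice correlated at 0.066. Without 1 mouse, between 99 and 299 genes were called in all and 1 Zfp gene each time, the lone mouse of a genotype being assumed to vary like the others. The number of Zfp genes higher in both Eko mice was 76 to 89 under other scalings, and 113 to 129 without 1 mouse, where fewer comparisons must be met. The rank correlation with GC content was −0.31 to −0.25 without 1 mouse, and was 0.016 after the GC correction, 0.012 with the correction fitted on genes outside the 245 and 0.021 with correction and replicate block.

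Of 960 values for 60 single genes, 895 kept their direction and side of the threshold, and 61 changed sign, all in genes with no call. Under the 3 GC corrections (all genes, genes outside the 245, with replicate block) these were Zfp207 (−0.0246, −0.0236 and −0.0238), Zfp24 (−0.0406, −0.0389 and −0.0406), Zfp326 (−0.0172, −0.0144 and −0.0157), Zfp384 (0.0417, 0.0424 and 0.0420), Zfp423 (0.0827, 0.0840 and 0.0832), Zfp598 (0.0159, 0.0174 and 0.0159), Zfp746 (0.0555, 0.0564 and 0.0628) and Zfp91 (−0.0023, −0.0018 and −0.0024). Zfp809 changed sign under the last of the 3 only (−0.0026). With a length correction they were Zfp143 (0.0331), Zfp410 (−0.0323), Zfp516 (−0.0048), Zfp652 (−0.0262) and Zfp91 (−0.0370). Zfp809 was at −0.0061 with limma-voom, and Zfp91 at −0.0010 with upper-quartile scaling and with the 1 CPM filter. Without 1 mouse the sign changed, over the ranges given, in Zfp143 (−0.0799 to 0.0678), Zfp207 (−0.0254 to 0.0796), Zfp326 (−0.00063 to 0.0954), Zfp346 (−0.0847 to 0.246), Zfp36 (−0.664 to 0.181), Zfp384 (−0.0467 to 0.0375), Zfp423 (−0.168 to 0.166), Zfp462 (−0.0429 to 0.356), Zfp516 (−0.0132 to 0.0686), Zfp568 (−0.101 to 0.226), Zfp592 (−0.0183 to 0.0765), Zfp622 (−0.0054 to 0.105), Zfp652 (−0.0136 to 0.118), Zfp703 (−0.106 to 0.141), Zfp706 (−0.0779 to 0.0659), Zfp746 (−0.153 to 0.145), Zfp784 (−0.513 to 0.0459), Zfp809 (−0.156 to 0.178) and Zfp91 (−0.0228 to 0.043). The causes were not tested.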
